A study of Saccharomyces cerevisiae with 2 samples.

Results

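The 10 genes described here code for the histones of Saccharomyces cerevisiae, the proteins around which nuclear DNA is wrapped. They were chosen by name from the 6716 genes with values: HTA1 and HTA2 for H2A, HTB1 and HTB2 for H2B, HHT1 and HHT2 for H3, HHF1 and HHF2 for H4, HTZ1 for the variant H2A.Z, and HHO1 for the linker histone. All 10 were found in both libraries. The choice used no expression value, although earlier results from the same libraries were known. Poly(A) RNA was sequenced from 1 library of YHJ7, a wild type haploid derived by sporulation from a strain of Chinese rice wine, and from 1 library of BY4741, a laboratory strain of the S288c background. The labels give BY4741 as MATa with HIS, LEU2, LYS2 and URA3 deleted, give no mating type for the rice wine strain, and write it as YHJ8. Both strains were grown in YPD from an OD600 of 0.05 to early stationary phase, and each library was a pool of 2 biological replicates. The spread between cultures was therefore not measured, and no difference below has a replicate check or a p-value.

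The column headings of each deposited table name the other strain than the sample it belongs to. Libraries were assigned by heading, and assigning them by sample would turn every direction around. LEU2 and URA3, which the labels give as deleted in BY4741, had 0 fragments in the library headed BY4741 and 473 and 768 in the other. LYS2 had 1348 fragments in the library headed BY4741 and 830 in the other, which goes against its label. The label's HIS entry names no numbered gene, and HIS3 had 548 and 715 fragments. MET17, which the label does not list, had 0 and 240. On genes there were about 10219631 fragments of BY4741 and 8167485 of YHJ7, of which the 10 histone genes held 47164 and 23519. Intervals given below are 95% intervals that cover counting error only.

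A nucleosome holds a pair each of H2A, H2B, H3 and H4. Their genes are transcribed mainly in S phase, when newly copied DNA has to be packaged. In yeast each core histone is coded by a pair of gene copies, and the genes lie in divergent pairs that share the DNA between them. That shared DNA holds upstream activating elements bound by Spt10. Transcription outside S phase is repressed by the HIR complex at all of these loci but HTA2-HTB2. H2A.Z replaces H2A next to many promoters, and Hho1 is the yeast counterpart of histone H1.

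The Spt10 element is already known from the shared DNA of the core genes, so its presence there is a description and no independent support. It was not used to choose the genes. The element was searched as TTCC, any 6 bases and TTCNC on both strands of the 500 bases before each start codon in the RefSeq sequence of the R64 assembly, the build of the files (sacCer3). It was found before 8 of the 10 histone genes, namely all 8 core genes, and before 2.9% of 6000 protein-coding genes. HTZ1 and HHO1 had no match in this window. Since the core genes lie in divergent pairs, the 8 genes share 5 elements. The stretches are printed because they carry what the core genes have in common. The element is in capitals, and the strand printed is the one on which the first element reads from TTCC.
HTA1-HTB1: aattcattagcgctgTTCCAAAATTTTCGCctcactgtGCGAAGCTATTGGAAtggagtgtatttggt
HTA2-HTB2: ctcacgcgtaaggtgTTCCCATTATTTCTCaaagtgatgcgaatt
HHT1-HHF1: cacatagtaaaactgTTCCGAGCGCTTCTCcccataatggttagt
HHT2-HHF2: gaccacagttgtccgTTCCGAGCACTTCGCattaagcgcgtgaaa

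The first stretch lies at chrIV:915099-915166 on the plus strand and holds 2 elements in opposite orientation. The other stretches are on the minus strand at chrII:236093-236137, chrII:255929-255973 and chrXIV:576331-576375, with 1 element each. The genes of a pair are 646 to 817 bases apart. CGCGAAA, a site of the G1/S factor SBF, was found before HTB1, HHT2, HHF2 and HHO1 and before 5.82% of all genes. ACGCGT, a site of the related factor MBF, was found before HTA2 and HTB2 and before 5.42% of all genes. TATAAA was found before 5 histone genes and 60.5% of all genes. No match of 1 motif overlapped a match of another in these 10 windows. A match describes letters and not binding, and the sequence of YHJ7 itself was not used.

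The copies of a core histone are similar enough for reads to be shared between them. HHF1 and HHF2 differ at 8 of 312 coding positions, an identity of 97.4%, with an identical run of up to 80 bases. HTA1 and HTA2 differ at 25 of 399 positions (93.7%), HHT1 and HHT2 at 28 of 411 (93.2%), and HTB1 and HTB2 at 48 of 396 (87.9%). The read length of the RNA libraries is not given in the sources used here, so values of single copies depend on how the reads were divided, and sums over the copies depend on it less. The H2A and H4 genes are printed over their first 240 coding bases, with each position at which the copies differ in capitals. H2A is shown because its copies differed most between the libraries, and H4 because its copies are the most alike.
HTA1: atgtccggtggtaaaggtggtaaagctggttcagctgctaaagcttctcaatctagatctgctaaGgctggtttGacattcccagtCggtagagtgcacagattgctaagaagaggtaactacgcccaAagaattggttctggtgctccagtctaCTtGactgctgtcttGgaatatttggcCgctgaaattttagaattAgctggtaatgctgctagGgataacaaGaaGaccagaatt
HTA2: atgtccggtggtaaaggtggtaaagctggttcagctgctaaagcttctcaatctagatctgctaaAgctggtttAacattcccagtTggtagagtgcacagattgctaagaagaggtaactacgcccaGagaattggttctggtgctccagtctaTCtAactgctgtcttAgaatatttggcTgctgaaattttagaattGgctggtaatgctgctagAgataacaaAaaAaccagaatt
HHF1: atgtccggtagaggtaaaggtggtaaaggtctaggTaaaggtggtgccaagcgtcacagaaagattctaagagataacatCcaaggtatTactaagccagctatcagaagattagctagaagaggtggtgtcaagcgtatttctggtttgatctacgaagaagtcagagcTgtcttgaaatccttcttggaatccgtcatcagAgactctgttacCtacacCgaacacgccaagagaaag
HHF2: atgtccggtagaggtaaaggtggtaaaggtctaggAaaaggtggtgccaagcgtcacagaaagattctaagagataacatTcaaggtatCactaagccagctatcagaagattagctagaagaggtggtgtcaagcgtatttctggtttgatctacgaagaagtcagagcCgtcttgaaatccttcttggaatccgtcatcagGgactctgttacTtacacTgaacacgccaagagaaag

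Core histone mRNA was abundant in both libraries. Levels are given in the FPKM that the authors estimated, which divide the fragments of a gene by its effective length and by the size of the library. The 8 core genes ranged from 881 to 4059 FPKM in BY4741 and from 539 to 4419 FPKM in YHJ7. HTA1 was the highest histone gene in both, at rank 70 of 6716 genes in BY4741 and rank 76 in YHJ7. In BY4741 it was followed by HHT2 at 2967 and HTB1 at 2966 FPKM, whose counting intervals overlap. HHF1 (2684 FPKM) and HHT1 (2572 FPKM) came next, again with overlapping intervals, then HHF2 at 2301 FPKM. In YHJ7 the order after HTA1 was HTB1 at 2231 FPKM and HHT1 at 1896 FPKM, and then HHF2 (1731), HHF1 (1722) and HHT2 (1641 FPKM), whose counting intervals overlap. The order among genes of unequal length depends on the length used for FPKM. With deposited counts per kilobase of coding length, HHT1 (13545) was above HHF1 (10063) in BY4741. In YHJ7, HHT2 (8642) was above HHF2 (6488) and HHF1 (6456) on that scale. HTA2 and HTB2 were the lowest core genes in both libraries, HTZ1 was below all of them, and HHO1 was the lowest of the 10 genes.

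**Figure D1:**
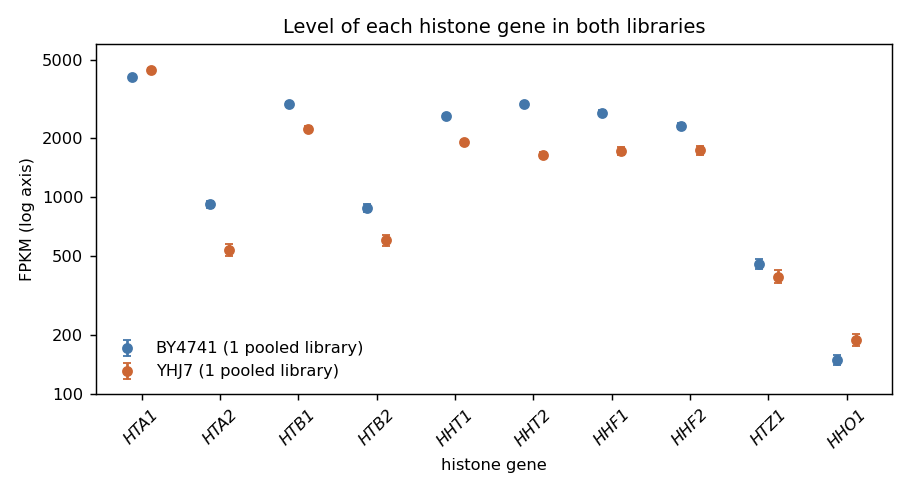
FPKM of the 10 histone genes on a log axis, with 1 point for each library and bars for the 95% exact Poisson interval of the fragment count. HTA1 is the highest gene in both libraries, at 4059 FPKM in BY4741 and 4419 in YHJ7, and HHO1 is the lowest, at 149 and 188 FPKM.

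On the deposited values the histone genes differed less than 2-fold between the libraries, and most of them were lower in YHJ7. Of the 10 genes, 8 had a lower log2(FPKM + 1) in YHJ7, beside 49.2% of all genes, and the exceptions were HTA1 and HHO1. A fold of at least 2 was reached by 0 of the 10 in either direction, while 12.4% of all genes were at least that much higher in YHJ7 and 9.84% at least that much lower. The median log2(FPKM + 1) difference, YHJ7 minus BY4741, was -0.43 for the 10 genes and -0.49 for the 8 core genes, beside 0.00 for all genes and 0.21 for the 1903 genes with a mean of at least 100 FPKM. The 95% counting interval of the log2 ratio lay below 0 for 8 of the 10, beside 33.6% of 6287 genes with more than 3 fragments in both libraries, and above 0 for 2, beside 39.1%. Fewer cells in S phase and less histone mRNA per cell cannot be told apart in RNA from whole cultures. Nor can the strain be told apart from the growth state of its cultures, with 1 library of each.

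How the libraries are scaled sets the size of these differences. The deposited values were already scaled by the authors, and the median gene had a difference of 0.00. When both libraries are instead set to the same total of counts on genes, every log2 ratio of YHJ7 to BY4741 shifts by -0.33. HTA1 then turned from 0.12 to -0.21, HHO1 moved from 0.34 to 0.01 with an interval from -0.12 to 0.14, and HTA2 and HHT2 passed 2-fold at -1.10 and -1.19. Of the 10 genes, 2 were then at least 2-fold lower in YHJ7, beside 15.7% of all genes. The 10 histone genes together held 0.462% of the deposited counts on genes in BY4741 and 0.288% in YHJ7. In what follows, shares of the copies, ratios between histones and differences between log2 ratios do not depend on the scaling. Each fold or log2 ratio between the libraries does, and is on the deposited values unless equal totals are named.

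**Figure D2:**
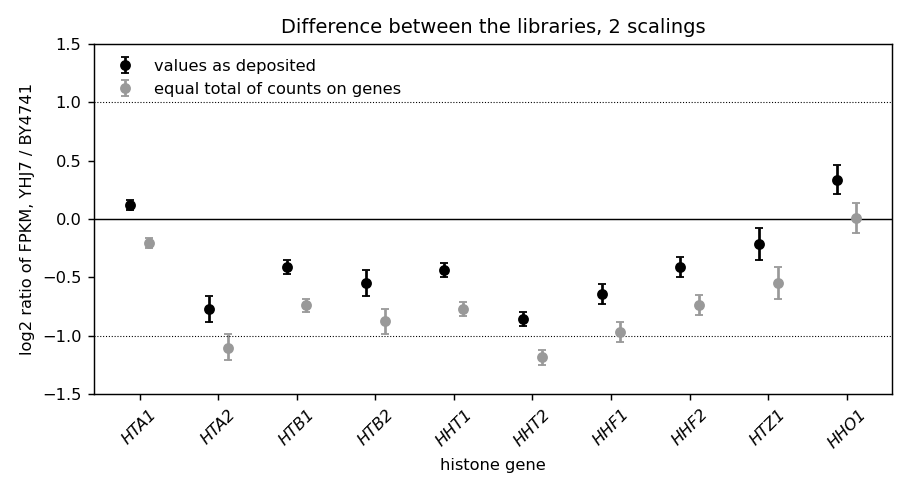
Log2 ratio of FPKM, YHJ7 over BY4741, for each histone gene, with the values as deposited (black) and with equal totals of counts on genes (grey). Bars are 95% counting intervals and dotted lines mark 2-fold. On the deposited values all 10 points lie between the dotted lines, and with equal totals HTA2 (-1.10) and HHT2 (-1.19) lie below the lower one.

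H2A was the core histone whose summed level differed least between the libraries, and on the deposited values its copies went in opposite directions. HTA1 (YDR225W, chrIV:915530-915928 of sacCer3) had 4059 FPKM in BY4741 and 4419 FPKM in YHJ7, for a log2 ratio of 0.12 (counting SE 0.022) that turned to -0.21 with equal totals. HTA2 (YBL003C, chrII:235394-235792) had 920.2 FPKM in BY4741 and 539 FPKM in YHJ7 (log2 ratio -0.77, counting SE 0.057). HTA1 thus supplied 81.5% of the H2A mRNA in BY4741 and 89.1% in YHJ7, with Wilson intervals from 80.8% to 82.2% and from 88.4% to 89.8%. The log2 ratio of HTA1 exceeded that of HTA2 by 0.89, with a counting interval from 0.77 to 1.01. The summed FPKM of H2A was 4979 in BY4741 and 4959 in YHJ7. The log2 ratio was -0.01 (-0.05 to 0.03) on the deposited values and -0.34 with equal totals.

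H2B was lower in YHJ7 through both copies. HTB1 (YDR224C, chrIV:914317-914712), the divergent partner of HTA1, had 2966 FPKM in BY4741 and 2231 FPKM in YHJ7. HTB2 (YBL002W, chrII:236492-236887), the partner of HTA2, had 881 and 603 FPKM. Their log2 ratios were -0.41 and -0.55, and HTB1 supplied 77.1% of the H2B mRNA in BY4741 and 78.7% in YHJ7. The summed FPKM of H2B was 3847 in BY4741 and 2834 in YHJ7, 1.36-fold lower in YHJ7. As a log2 ratio this was -0.44 on the deposited values and -0.77 with equal totals.

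H3, whose copies code for the same protein, was lower by the most, and the leading copy differed between the libraries. HHT1 (YBR010W, chrII:256331-256741) had 2572 FPKM in BY4741 and 1896 FPKM in YHJ7. HHT2 (YNL031C, chrXIV:575640-576050) had 2967 and 1641 FPKM (log2 ratio -0.85, counting SE 0.032). This was the largest difference among the 10 genes, and 12.2% of all genes had a difference as low or lower. HHT2 supplied 53.6% of the H3 mRNA in BY4741, and HHT1 supplied 53.6% in YHJ7 with an interval from 52.4% to 54.9%. The summed FPKM of H3 was 5539 in BY4741 and 3537 in YHJ7, 1.57-fold lower in YHJ7. As a log2 ratio this was -0.65 on the deposited values and -0.98 with equal totals.

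H4 was lower in YHJ7 through both copies as well. HHF1 (YBR009C, chrII:255373-255684) had 2684 FPKM in BY4741 and 1722 FPKM in YHJ7, and HHF2 (YNL030W, chrXIV:576727-577038) had 2301 and 1731 FPKM. The log2 ratios were -0.64 and -0.41. HHF1 supplied 53.9% of the H4 mRNA in BY4741 and 49.9% in YHJ7, where the interval from 48.2% to 51.6% includes equal shares. With the FPKM of the authors' comparison table the shares were 59.4% and 54.1%, so HHF1 was the higher copy in both libraries. The summed FPKM of H4 was 4985 in BY4741 and 3453 in YHJ7, 1.44-fold lower in YHJ7. As a log2 ratio this was -0.53 on the deposited values and -0.86 with equal totals.

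**Figure D3:**
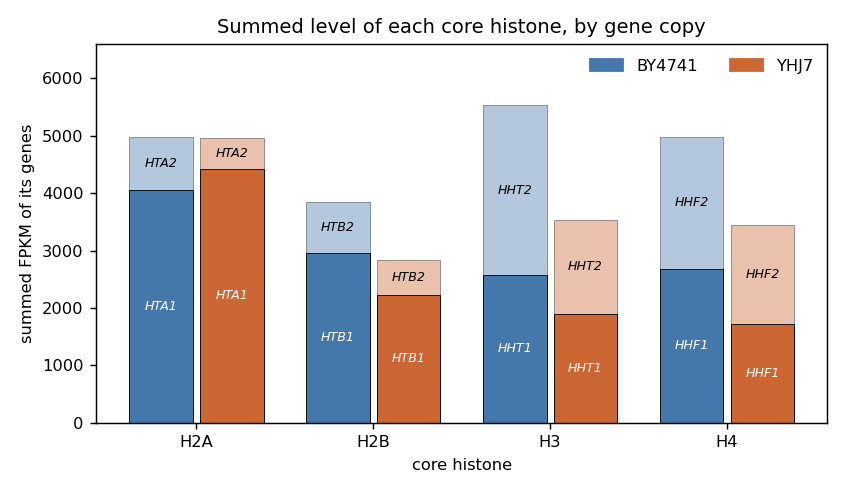
Summed FPKM of each core histone in BY4741 (blue) and YHJ7 (orange), with the first gene copy in the full colour and the second in the pale colour on top. On these deposited values H2A reaches 4979 and 4959 FPKM, while H2B, H3 and H4 are lower in YHJ7.

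The balance between the core histones therefore differed between the libraries in a way that no scaling changes. The ratio of H2A to H2B mRNA was 1.29 in BY4741 and 1.75 in YHJ7, and that of H2A to H3 was 0.90 in BY4741 and 1.40 in YHJ7. The log2 ratio of H2A between the libraries exceeded that of H2B by 0.44 with a counting interval from 0.37 to 0.50, that of H3 by 0.64 (0.58 to 0.70) and that of H4 by 0.52 (0.45 to 0.60). The log2 ratios of H2B, H3 and H4 between the libraries stood closer to each other. The ratio of H2B to H4 was 0.77 in BY4741 and 0.82 in YHJ7, and that of H3 to H4 was 1.11 and 1.02. Ratios within a library also rest on which FPKM is used. In the authors' comparison table, HTA1 and HTA2 had 4589 and 959 FPKM in BY4741, and HHT1 and HHT2 had 2384 and 2693. H2A was thus above H3 in BY4741 there, and its ratio to H2B was larger in both libraries. The summed log2 ratios between the libraries were there -0.05 for H2A, -0.51 for H2B, -0.65 for H3 and -0.55 for H4.

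Levels of different histones within a library depend on the length used for FPKM, while the ratio of a gene between the libraries does not. The counts and FPKM of the long genes give the scale on which the effective length of a gene can be read. It was 120 of 312 bases for the H4 genes, 210 of 399 for the H2A genes, 207 of 396 for the H2B genes, 223 of 411 for the H3 genes and 612 of 777 for HHO1. Short genes thus had their FPKM raised the most. With deposited counts per kilobase of the full coding length, the ratio of H3 to H4 was 1.56 in BY4741 and 1.44 in YHJ7, in place of 1.11 and 1.02. The ratio of H2A to H2B, whose genes are of nearly equal length, was 1.30 and 1.76 on that scale.

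Divergent partners differed between the libraries by unequal amounts, beyond counting error in each of the 4 pairs. The log2 ratio of HTA1 exceeded that of HTB1 by 0.53, with a counting interval from 0.46 to 0.61. The pair had 7025 FPKM in BY4741 and 6650 FPKM in YHJ7 (-0.08 as a log2 ratio), which was the smallest difference among the pairs. HTA2 and HTB2, the pair that the HIR complex does not repress, summed to 1801 and 1142 FPKM, a log2 ratio of -0.66. HHT1 and HHF1 summed to 5256 and 3618 FPKM (-0.54), and HHT2 and HHF2 to 5268 and 3372 FPKM (-0.64). Within the HHT2-HHF2 pair the log2 ratio of HHT2 was lower than that of HHF2, by a difference of -0.44 with an interval from -0.55 to -0.34. In the HHT1-HHF1 pair it was HHF1 that was lower, by 0.20 with an interval from 0.10 to 0.30.

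HTZ1, the gene of H2A.Z, differed less than any other member but HTA1 on the deposited values. HTZ1 (YOL012C, chrXV:303579-303983) had 459 FPKM in BY4741 and 395 FPKM in YHJ7 (log2 ratio -0.22, counting SE 0.070). Of the mRNA for H2A and H2A.Z together, HTZ1 made up 8.44% in BY4741 and 7.39% in YHJ7. The log2 ratio of HTZ1 was lower than that of summed H2A, with a difference of -0.21 and a counting interval from -0.35 to -0.07. It exceeded that of summed H2B by 0.23 (0.08 to 0.37). The summed log2 ratios of H3 (-0.65) and H4 (-0.53) were also below that of HTZ1.

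HHO1, the linker histone gene, was higher in YHJ7 on the deposited values. HHO1 (YPL127C, chrXVI:308828-309604) had 149 FPKM in BY4741 and 188 FPKM in YHJ7 (log2 ratio 0.34, counting SE 0.065). With equal totals its log2 ratio was 0.01. Its FPKM was 3.08% of the mean summed level of a core histone in BY4741 and 5.09% in YHJ7. These percentages depend on the length used, since FPKM was raised more for the short core genes. With counts per kilobase of full coding length, HHO1 had 1139 in BY4741 and 1440 in YHJ7. Summed core histones had 18688 (H4) to 29176 (H3) in BY4741 and 12944 (H4) to 25370 (H2A) in YHJ7. The log2 ratio of HHO1 exceeded that of H3 by 0.99 (0.85 to 1.12), that of H4 by 0.87 (0.73 to 1.01), that of H2B by 0.78 (0.64 to 0.92) and that of H2A by 0.34 (0.21 to 0.48). HHO1 was thus higher in YHJ7 relative to each core histone, whatever the scaling.

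Genes that control histone transcription went in both directions. On the log2(FPKM + 1) scale, on which 12.4% of all genes passed 2-fold upward in YHJ7 and 9.84% downward, 1 of 13 regulators passed upward and 1 downward, and their median difference was -0.29. The counting interval of the log2 ratio of FPKM excluded 0 for 10 of the 13. Of 6287 genes with more than 3 fragments in both libraries, it lay below 0 for 33.6% and above 0 for 39.1%. SPT10, the activator that binds the element printed above, had 15.8 FPKM in BY4741 and 16.3 FPKM in YHJ7. Its partner SPT21 had 2.68 and 5.02 FPKM, from 72 and 86 fragments. The subunits of the HIR complex were all somewhat lower in YHJ7 on the deposited values, at 8.24 and 5.85 FPKM for HIR1, 11.8 and 8.34 for HIR2, 6.33 and 5.33 for HIR3, and 26.6 and 16.7 for HPC2. The H3-H4 chaperone gene ASF1 had 37.8 and 30.8 FPKM. SWI6, which codes for the subunit shared by SBF and MBF, was the gene past 2-fold upward, at 11.3 and 27.1 FPKM. RTT106, whose chaperone takes part in repression at histone loci, was past 2-fold downward, at 38.6 and 16.3 FPKM. RTT109, which acetylates newly made H3, was past 2-fold downward only on the ratio of FPKM, at 9.66 and 4.81 FPKM.

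The other genes of histone supply and use are counted on the log2(FPKM + 1) scale as well. Among 7 genes of histone and histone mRNA turnover, RRP6, a nuclear exosome subunit, was higher in YHJ7 (23.5 and 58.5 FPKM), and 0 passed 2-fold downward. The checkpoint kinase gene RAD53 had 1.87 and 0.535 FPKM from 55 and 10 fragments, past 2-fold downward only on the ratio of FPKM. Among 16 chaperone and import genes, CAC2 of chromatin assembly factor 1 was lower (19.1 and 7.48 FPKM). Of 16 genes of the SWR1 and INO80 remodellers, SWC5, a subunit of the complex that deposits H2A.Z, was lower at 25.4 and 12.1 FPKM. Of 15 histone modifying enzymes 0 passed 2-fold in either direction, although DOT1, the H3 methyltransferase, did on the ratio of FPKM (9.87 and 4.78 FPKM). CSE4, the gene of the centromeric H3 variant, had 48.5 FPKM in BY4741 and 48.9 FPKM in YHJ7. Over these 6 lists, 2 of 69 genes passed 2-fold upward in YHJ7 and 3 downward, and 51 of the 69 were lower by any amount, beside 49.2% of all genes. On the ratio of FPKM with nothing added, 2 passed upward and 6 downward. The share of all genes was not counted on that scale. With 0.1 added to FPKM in place of 1, it was 13.1% upward and 11.4% downward. With equal totals, 0 passed upward and 11 downward, beside 7.55% and 15.7% of all genes, and SWI6 and RRP6 were then under 2-fold. The count of the lists shifted the log2(FPKM + 1) difference itself, while the shares of all genes rescaled FPKM before 1 was added. A gene close to 2-fold can fall on either side between these measures.

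Other S phase genes were mostly lower in YHJ7 too. Of 16 such genes 13 were lower on the deposited values, beside 49.2% of all genes. This was not particular to S phase genes. Of the SWR1 and INO80 remodellers 13 of 16 were lower, with a median difference of -0.27. Of the chaperone and import genes 12 of 16 were (-0.29), of the histone modifying enzymes 11 of 15 (-0.35), and of the reference genes 2 of 6. On the log2(FPKM + 1) scale 0 passed 2-fold upward and 3 downward, beside 12.4% and 9.84% of all genes, with a median difference of -0.28. On the ratio of FPKM, for which the share of all genes was not counted, 4 passed downward. The fourth was CDC9, the DNA ligase gene, at 9.82 and 4.70 FPKM. CLB5, an S phase cyclin, had 11.7 FPKM in BY4741 and 4.57 FPKM in YHJ7. POL2, the catalytic subunit of DNA polymerase epsilon, had 10.1 and 4.37 FPKM, and RAD27, the flap endonuclease, had 22.9 and 10.7 FPKM. RNR1, the large subunit of ribonucleotide reductase, went the other way with 10.3 and 16.1 FPKM.

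**Figure D4:**
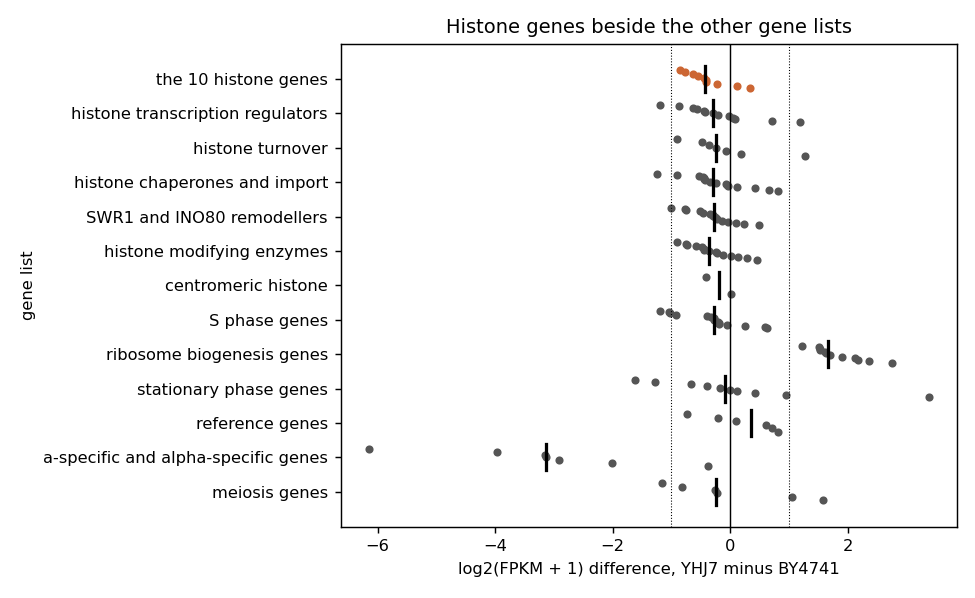
Log2(FPKM + 1) difference, YHJ7 minus BY4741, of each histone gene (orange) and of the genes of the other lists (grey). Black bars are medians and dotted lines mark 2-fold. The histone median is -0.43, the S phase median is -0.28 and that of the histone modifying enzymes is -0.35. All 12 ribosome biogenesis genes lie above the upper dotted line.

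Other markers also differed between the libraries, and their part in the histone values was not tested. Their counts stand beside 12.4% of all genes past 2-fold upward in YHJ7 and 9.84% downward. With equal totals these shares were 7.55% and 15.7%. All 12 ribosome biogenesis genes were at least 2-fold higher in YHJ7, with a median difference of 1.66 and NSR1 at 92.3 and 628 FPKM, and with equal totals 11 of 12 were. Of 10 stationary phase genes 1 passed 2-fold upward and 2 downward. The higher one was SNZ1, at 361 and 3803 FPKM. The lower ones were SIP18, at 30161 and 12440 FPKM, and CTT1, the cytosolic catalase gene, at 825 and 269 FPKM. Of 7 genes specific to mating type a or alpha, 6 passed 2-fold downward in YHJ7, from both sets. The a-specific pheromone gene MFA2 had 340 fragments in BY4741 and 3 in YHJ7, and the a-specific AGA2 had 333 and 13. The alpha-specific receptor gene STE3 had 224 and 7 fragments, while the alpha-specific SAG1 had 493 and 238 and did not pass 2-fold. Genes of both sets were thus lower in the library of YHJ7, which the study describes as haploid. Of 6 meiosis genes 4 were lower in YHJ7, 1 of them past 2-fold, and 2 passed 2-fold upward, with a median difference of -0.23. Those upward were IME1, the inducer of meiosis, at 32.9 and 101 FPKM, and the kinase gene IME2 at 4.88 and 11.2 FPKM. The one downward was HOP1, a protein of meiotic chromosomes, at 6.58 and 2.40 FPKM. Of 6 reference genes 0 passed 2-fold on the deposited values and 1 with equal totals, and ACT1, the actin gene, had 1320 and 2011 FPKM.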

How the data were processed

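RNA-Seq was available for 1 library of BY4741 and 1 of YHJ7. Per the labels and the methods of the study, the authors used TopHat2 2.0.4 for mapping to S288c (sacCer3) and Cufflinks 2.0.2 for expression. Reads of YHJ7 were mapped to S288c as well, and the effect of its sequence differences was not tested. For each library and gene, the authors deposited an FPKM value and an estimated count that is not whole. A deposited table of comparisons, used for its FPKM columns alone, also holds the authors' fold changes and p-values, which were not used. The row without a gene (0.806% of counts in BY4741 and 0.309% in YHJ7) was left out. Protein sequences were not used here.

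Fragments were counts divided by the largest step, from counts under 100, whose share of whole multiples (tolerance 0.02) lay within 0.1 of the highest share. It was 0.797 for BY4741, where 55.2% of those counts were whole multiples, and 1.25 for YHJ7, where 56.2% were, so no count model was fitted. Differences are log2(FPKM + 1) of YHJ7 minus BY4741, which understates low genes, or log2 ratios of FPKM, with a counting standard error times 1.96 for intervals. A gene was counted as past 2-fold from a log2(FPKM + 1) difference of 1 in size. The count on the ratio of FPKM with nothing added was chosen after seeing the data. Members, gene lists, motifs and alternatives were chosen with earlier results of these data known. Besides all 10 members, genes named are at most the 4 largest per list past 2-fold, together with SPT10, SPT21, ASF1, CSE4 and the HIR genes, and, as the check of labels, LEU2, URA3, HIS3, LYS2 and MET17. RTT109, RAD53, DOT1, CDC9, SAG1, RNR1 and ACT1 were named after their values were seen. The rule used no likeness of pattern, since 2 libraries give 1 difference. Coordinates count from 1. Python 3.11.15, NumPy 2.4.6, pandas 2.3.3, SciPy 1.17.1, statsmodels 0.14.6, Biopython 1.88 and matplotlib 3.10.9 were used. The counting intervals were tested on simulated Poisson counts only. That simulation held neither counts that are not whole nor reads shared between copies, so it does not test these data.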

Additional observations from a re-analysis of the deposited data

How the results depend on the processing

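No paired analysis was possible because a single library stood for either strain. With equal totals of counts on genes, the summed log2 ratio was -0.34 for H2A, -0.77 for H2B, -0.98 for H3 and -0.86 for H4, the median difference was -0.75 for the 10 genes and -0.82 for the 8 core genes, 2 genes were at least 2-fold lower, and HTA1 reversed to -0.21. At 1.5-fold, 3 genes were lower and 0 higher, beside 19.1% and 22.4% of all genes. With the FPKM of the authors' comparison table, the summed log2 ratio of H2B was -0.51. The share of HTA1 in H2A was there 82.7% in BY4741 and 90.3% in YHJ7, that of HTB1 in H2B 78.4% and 80.5%, that of HHT1 in H3 of YHJ7 56.2%, and that of HHF1 in H4 59.4% and 54.1%, so HHF1 led in YHJ7 in that table. The cause was not tested. Of 60 alternative values of member differences, 47 stayed within counting error, 12 moved beyond it in the same direction and 1 reversed. Most of the 47 came from settings that could hardly move genes at these levels. These were other pseudocounts, counts without length and a shift of -0.01 that sets the median gene to 0. With equal totals every member moved beyond counting error or reversed. Of 60 alternative medians of the other lists, 38 stayed close, 22 moved and 0 reversed. Depth limits SPT21, with 72 and 86 fragments, more than the histone genes.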
